A study of Homo sapiens with 7 samples.

Results

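The genes described here are 43 members of the RAF-MEK-ERK pathway, its feedback inhibitors, the ETS and AP-1 transcription factors it acts on, and the immediate early genes. They were chosen by name, with earlier results of these data known. All 43 had a row among the 60675 gene identifiers of the count table. After a filter on low counts 41 of them were tested among 16583 genes, and DUSP2 and EGR3 fell below that filter. The RNA came from MDA-MB-231, a triple-negative human breast cancer line that is known to carry mutations in RAS and RAF genes, which all libraries share. Of the 7 libraries, 4 were from cells transfected with siRNA against DEPDC1 (siDEPDC1, genotype label DEPDC1 KD) and 3 from cells given a control siRNA (siCTL, genotype label DEPDC1 WT). Both groups received 5 µl of siRNA at 20 µM with Lipofectamine RNAiMAX, had their medium replaced after 8 h, and were harvested on day 2. Fold changes are siDEPDC1 over siCTL.

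In this pathway RAS recruits the RAF kinases ARAF and BRAF, RAF activates the MEK kinases MAP2K1 and MAP2K2, and MEK activates ERK, of which MAPK3 encodes one form. ERK phosphorylates ETS factors and AP-1 proteins, which switch on immediate early genes within minutes and, later, the Sprouty, SPRED and DUSP genes whose products turn the pathway down again. In cells with a mutant RAS or RAF the feedback genes are known to be held high while the pathway stays active. Transcript levels do not report the phosphorylation of these kinases, which was not measured here.

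Library totals were 7690583 to 13483305 counts in siDEPDC1 and 11704246 to 15360409 counts in siCTL. DEPDC1, the targeted transcript, averaged 13.3 ± 1.43 CPM (counts scaled to library size) in siDEPDC1 and 118 ± 3.20 CPM in siCTL (SD, n = 4 and 3). Of 7 markers of mesenchymal breast cancer lines none was higher and 4 were lower, with a sum of 6593 to 6963 CPM in siDEPDC1 and 6904 to 7227 CPM in siCTL. The 4 lower genes were CAV1 (442 ± 13.4 and 593 ± 27.4 CPM), ZEB1 (87.8 ± 6.15 and 113 ± 3.63 CPM), EGFR (462 ± 28.1 and 562 ± 29.4 CPM) and FN1 (541 ± 53.6 and 630 ± 11.4 CPM). VIM, neither higher nor lower, was at 3671 ± 125 and 3713 ± 166 CPM. Of 9 luminal or receptor-positive breast markers 7 were tested, 2 were higher and 1 lower, with a sum of 1277 to 1500 CPM in siDEPDC1 and 1092 to 1214 CPM in siCTL. The keratin genes KRT8 (898 ± 71.5 and 740 ± 48.9 CPM) and KRT18 (429 ± 23.0 and 349 ± 21.7 CPM) were higher, and the E-cadherin gene CDH1 (0.372 ± 0.139 and 1.11 ± 0.378 CPM) was lower. CDH1 had only 2 to 6 counts per siDEPDC1 library and 10 to 21 per siCTL library. In that list the estrogen receptor gene ESR1 had at most 1 count per siDEPDC1 library and at most 8 per siCTL library. Of 13 markers of immune, endothelial and fibroblast cells, DCN and MS4A1 had no count, 5 were tested, and 2 were higher, COL1A1 at 30.2 ± 2.52 and 12.9 ± 1.35 CPM and CD14 at 3.25 ± 0.634 and 2.06 ± 0.498 CPM. The summed level of these 13 was 50.9 to 60.1 CPM in siDEPDC1 and 35.1 to 36.9 CPM in siCTL. The part of these marker lists in the results was not tested. In bulk RNA, fewer cells of a type and less RNA per cell cannot be told apart. Nothing in the labels says whether each library is a culture of its own, so the p-values reflect only how these libraries vary, and that variation may be technical.

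Of the 41 tested members, 13 rose and 7 fell after DEPDC1 siRNA (adjusted p under 0.05 from edgeR's quasi-likelihood test, adjusted by the Benjamini-Hochberg method over all genes tested). Among all tested genes 16.5% were higher and 17.9% lower, so that the share of members that fell (17.1%) was near the background and the share that rose (31.7%) was above it. These are counts beside counts, with no test of the list. The members were chosen with earlier results of these data known, so neither share is independent evidence about the pathway. They were also not matched to other genes by count level. With a minimum of 50 counts in every library of a group, 13 of 37 members were higher and 7 lower. Among all genes passing that filter, 2567 of 12396 were higher and 2622 lower. The role groups below were not tested as groups, and 16.5% and 17.9% of all tested genes stand beside their counts too. The changes were small. The rises ran from 1.11-fold to 1.47-fold, and 6 of the 7 falls were smaller than 2-fold, with the ETS factor gene ELK3 the exception at 2.42-fold. The median log2 fold change was 0.060 over the 41 members and 0.00094 over all tested genes. The siDEPDC1 libraries lay wholly above the siCTL libraries in 14 tested members and wholly below them in 8, against 37.3% of all tested genes that were separated in either direction.

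**Figure D1:**
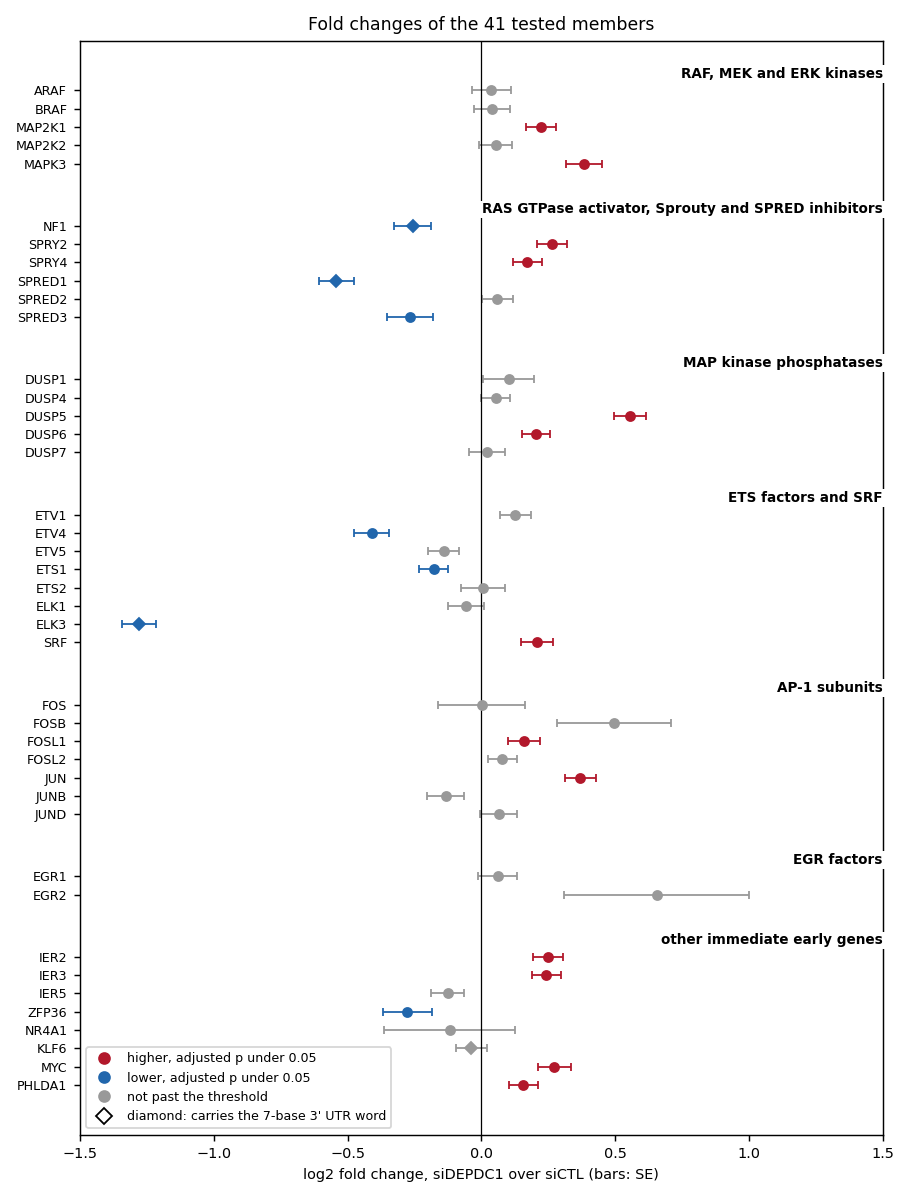
Log2 fold change (siDEPDC1 over siCTL) with its SE for each of the 41 tested members, grouped by role and coloured by the test; diamonds mark genes with the 7-base word GATAACT in the annotated 3′ UTR. ELK3 stands apart at -1.28, and the other called members lie between -0.54 and 0.56.

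The levels of the members spanned more than 3 orders of magnitude when expressed per transcript length, as TPM (counts scaled to transcript length and library size). IER3, a stress-induced survival gene, was the highest at 946 ± 30.3 TPM in siDEPDC1 and 802 ± 12.4 TPM in siCTL (SD, n = 4 and 3). It was followed by the AP-1 gene FOSL1 (494 ± 33.6 and 444 ± 18.1 TPM) and the phosphatase gene DUSP4 (493 ± 17.4 and 477 ± 5.59 TPM), whose levels in siDEPDC1 did not differ beyond their spread. PHLDA1 and DUSP6 came next, at 308 ± 5.86 and 285 ± 13.2 TPM in siDEPDC1 and 277 ± 7.66 and 248 ± 4.59 TPM in siCTL. Immediate early genes were spread over the whole scale. IER2 had 197 ± 5.84 and 166 ± 8.69 TPM, JUN 126 ± 3.99 and 97.8 ± 5.58 TPM, MYC 102 ± 3.81 and 85.0 ± 3.35 TPM, and JUNB 70.9 ± 5.45 and 78.2 ± 3.11 TPM. Lower on it, EGR1 had 25.9 ± 1.10 and 24.8 ± 0.765 TPM, FOS 5.04 ± 0.401 and 5.04 ± 0.698 TPM, FOSB 1.90 ± 0.297 and 1.37 ± 0.104 TPM, and NR4A1 0.961 ± 0.241 and 1.05 ± 0.164 TPM.

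**Figure D2:**
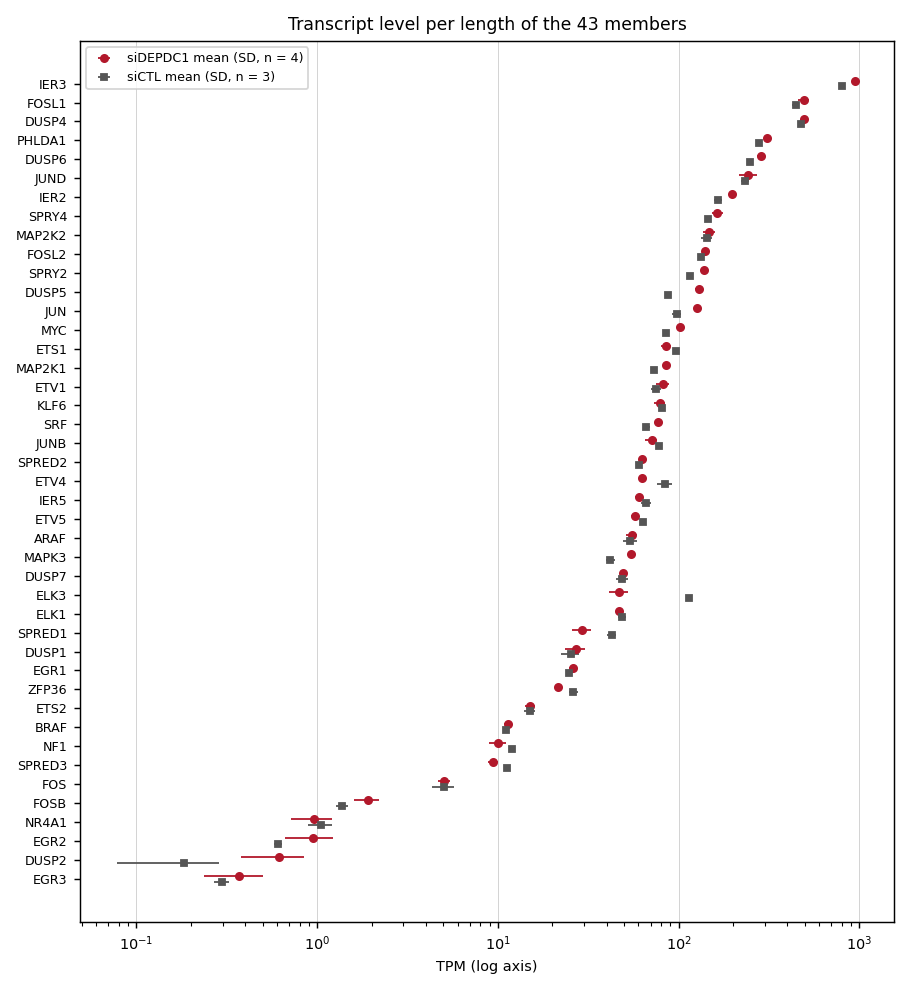
Mean TPM with SD of the 43 members on a log axis, siDEPDC1 (circles, n = 4) and siCTL (squares, n = 3), ordered by the siDEPDC1 mean. IER3, FOSL1, DUSP4, PHLDA1 and DUSP6 sit at the top, FOS, FOSB, NR4A1, EGR2, DUSP2 and EGR3 at the bottom, and ELK3 has the widest gap between the groups among the tested members.

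Among the RAF, MEK and ERK kinase genes, MAPK3 and MAP2K1 rose, and the other 3 did not pass the test. MAPK3 (GRCh38 chromosome 16, 30114105 to 30123506, minus strand), the ERK1 gene, had 52.2, 53.5, 55.6 and 55.9 CPM in the siDEPDC1 libraries, against 40.4, 43.8 and 40.5 CPM in the siCTL libraries. All 4 siDEPDC1 values lay above all siCTL values, and the log2 fold change was 0.38 ± 0.068 (SE; adjusted p = 2.9e-05). MAP2K1, the MEK1 gene, had 110, 110, 114 and 114 CPM in siDEPDC1 and 97.1, 95.6 and 95 CPM in siCTL, again without overlap (log2 fold change 0.22 ± 0.057, adjusted p = 0.0023). MAP2K2, the MEK2 gene and the most abundant kinase of the group per length (148 ± 10.8 and 143 ± 9.97 TPM), had 159, 161, 162 and 187 CPM in siDEPDC1 and 167, 167 and 149 CPM in siCTL, and the groups overlapped. BRAF, the least abundant at 11.4 ± 0.607 and 11.1 ± 0.337 TPM, had 43.6, 43.2, 42.2 and 40.4 CPM in siDEPDC1 and 40.7, 42.3 and 40.6 CPM in siCTL. Its log2 fold change was 0.04 with an approximate 95% interval of -0.09 to 0.17. ARAF was at 53.6 ± 4.60 and 52.2 ± 4.59 CPM (log2 fold change 0.04, interval -0.11 to 0.18).

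The inhibitors that act on RAS and RAF moved in both directions, with 2 higher and 3 lower of 6. SPRED1 (chromosome 15, 38252326 to 38357249, plus strand), a membrane protein that brings the RAS GTPase activator neurofibromin to RAS, had 100, 87.2, 82.4 and 81.4 CPM in siDEPDC1, against 119, 129 and 136 CPM in siCTL. The groups did not overlap, and the transcript fell 1.46-fold (log2 fold change -0.54 ± 0.066, adjusted p = 4.1e-08). NF1, which encodes neurofibromin itself, had 53.5, 47.0, 44.2 and 46.9 CPM in siDEPDC1 and 55.8, 57.4 and 58.8 CPM in siCTL, a 1.19-fold fall with no overlap (adjusted p = 0.0038). SPRED3, the least abundant of the group at 9.42 ± 0.576 and 11.3 ± 0.434 TPM, had 18.3, 16.7, 17.2 and 17.4 CPM in siDEPDC1 and 21.1, 21.4 and 20.2 CPM in siCTL (log2 fold change -0.27 ± 0.085, adjusted p = 0.014). The SPRED3 call did not hold without replicate 1 or 2 of siCTL or replicate 2 of siDEPDC1 (adjusted p = 0.052, 0.067 and 0.054) and with DESeq2 (0.056). SPRED2 was at 99.8 ± 2.64 and 95.7 ± 2.10 CPM and missed the threshold, with a log2 fold change of 0.06 (interval -0.05 to 0.17).

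SPRY2 and SPRY4, Sprouty genes that ERK signalling induces and whose products block it upstream, rose. SPRY2 had 144, 139, 145 and 150 CPM in siDEPDC1, against 117, 121 and 123 CPM in siCTL, with no overlap (log2 fold change 0.27 ± 0.056, adjusted p = 3.0e-04). SPRY4, the most abundant of these inhibitors per length at 164 ± 11.6 and 146 ± 2.41 TPM, had 350, 331, 316 and 358 CPM in siDEPDC1 and 303, 302 and 297 CPM in siCTL. Its rise of 1.13-fold (adjusted p = 0.015) was lost without siCTL replicate 2 (adjusted p = 0.056).

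Of the 6 phosphatase genes among the members 2 rose, 3 did not pass the test and 1 was not tested. DUSP5 (chromosome 10, 110497838 to 110511544, plus strand), a nuclear phosphatase specific for ERK, had 121, 131, 123 and 135 CPM in siDEPDC1 and 89.1, 86.4 and 84.4 CPM in siCTL. The lowest siDEPDC1 library stood well above the highest siCTL library, and the log2 fold change of 0.56 ± 0.059 (1.47-fold, adjusted p = 2.6e-09) was the highest rise among the called members. DUSP6, the cytoplasmic ERK phosphatase often read as a marker of ERK output, had 493, 498, 469 and 477 CPM in siDEPDC1, against 411, 423 and 426 CPM in siCTL (1.15-fold, adjusted p = 0.0027). DUSP4, a nuclear phosphatase and the most abundant of the group, had 1044, 1046, 1031 and 1104 CPM in siDEPDC1 and 1016, 1023 and 1015 CPM in siCTL. Its groups did not overlap, but the log2 fold change of 0.05 did not pass the test (interval -0.05 to 0.16). DUSP1, induced by stress and growth factors, was at 21.0 ± 2.66 and 19.7 ± 2.04 CPM, and DUSP7 at 63.7 ± 3.48 and 62.7 ± 4.33 CPM. Neither passed the test, with log2 fold changes of 0.10 and 0.02. DUSP2, known mainly from immune cells and not tested here, had 0.293, 0.295, 0.391 and 0.624 CPM in siDEPDC1 and 0.0737, 0.197 and 0.0869 CPM in siCTL, from 3 to 7 and 1 to 3 counts per library. In TPM the 6 phosphatase transcripts summed to 984 ± 29.3 in siDEPDC1 and 886 ± 12.5 in siCTL, of which DUSP4 made up 50.2 ± 0.910% and 53.8 ± 0.161% and DUSP5 13.1 ± 0.428% and 9.91 ± 0.255%.

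ELK3 (chromosome 12, 96194382 to 96269835, plus strand) was the member that changed most. It encodes NET, an ETS factor of the ternary complex group, which binds DNA together with SRF and represses transcription until ERK phosphorylates it. Its level was 83.9, 79.2, 75.5 and 66.3 CPM in siDEPDC1, against 184, 181 and 190 CPM in siCTL. Every siDEPDC1 library was far below every siCTL library, and the log2 fold change was -1.28 ± 0.063 (adjusted p = 7.0e-18, and -1.32 to -1.21 under the alternatives). ENSG00000258177, annotated on the opposite strand within the ELK3 gene, had 10.7% of the ELK3 counts and a log2 fold change of -1.37 (adjusted p = 3.1e-12). No source used here says if reads were assigned by strand, so the reads of the pair cannot be told apart. In siCTL, ELK3 was the highest of the ETS and SRF group per length (114 ± 1.89 TPM). In siDEPDC1 it was at 46.9 ± 5.49 TPM, level with the related factor ELK1 (46.8 ± 0.283 TPM), which activates the same class of promoter.

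A 7-base word, GATAACT, had earlier been found in these same data to be frequent in the 3′ UTRs of lowered genes, so its presence in a lowered member is no independent evidence. NF1, SPRED1, ELK3 and KLF6 carry it in that part of the transcript, 4 of the 40 members searched (10.0%), against 950 of 12318 tested genes searched (7.71%). Of these 4 genes, ELK3, SPRED1 and NF1 fell and KLF6 did not pass the test. ELK3, the member that fell most, and SPRED1 have a single copy each, and NF1, which fell less, has 2. The other 4 lowered members (SPRED3, ETV4, ETS1 and ZFP36) have no copy, and none of the 12 raised members that were searched has one. Over all searched genes 54.1% of carriers and 17.5% of genes without a copy were lower, with median 3′ UTR lengths of 3232 and 1033 bases. The part of the word in the members' falls was not tested. The sites are shown with their surroundings, the word in capitals, 5′ to 3′ on the transcript strand, from GENCODE release 29 (GRCh38):
ELK3, chr12:96268406-96268435, plus strand: actgaactgatGATAACTtggaacactcca
SPRED1, chr15:38353435-38353464, plus strand: gaaaatatattGATAACTatagatgttatg
NF1, first copy, chr17:31376201-31376230, plus strand: tgtaagcctttGATAACTttagttcgatgt
NF1, second copy, chr17:31377416-31377445, plus strand: aaattgtatatGATAACTtactgtcctttc
KLF6, chr10:3776771-3776800, minus strand: tctgttcaggtGATAACTgagcctcaatca

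ELK1 itself was at 48.8 ± 1.42 CPM in siDEPDC1 and 50.7 ± 2.33 CPM in siCTL and missed the threshold, with a log2 fold change of -0.06 (interval -0.19 to 0.07). SRF, the DNA-binding partner of both, had 116, 123, 129 and 129 CPM in siDEPDC1 and 112, 107 and 103 CPM in siCTL, with no overlap (log2 fold change 0.21 ± 0.059, adjusted p = 0.0057). The PEA3 genes, ETS factors that ERK signalling induces, did not move together. ETV4 had 56.0, 59.5, 57.7 and 63.1 CPM in siDEPDC1, against 81.8, 83.0 and 70.4 CPM in siCTL (1.33-fold lower, adjusted p = 7.9e-06). ETV5 lay below in every siDEPDC1 library, at 91.3 ± 3.40 and 101 ± 2.12 CPM, without passing the test (adjusted p = 0.057). ETV1 was at 213 ± 12.1 and 195 ± 12.4 CPM with a log2 fold change of 0.13 (adjusted p = 0.090). It passed as higher without siCTL replicate 3 or siDEPDC1 replicate 4 (adjusted p = 0.048 and 0.047), and with library size alone (0.038).

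ETS1, an ETS factor with a known role in invasion, had 179, 171, 165 and 165 CPM in siDEPDC1, against 198, 185 and 194 CPM in siCTL. The groups did not overlap and the fall was 1.13-fold (adjusted p = 0.011). That call was lost without siCTL replicate 1 (adjusted p = 0.081). Its relative ETS2, the least abundant of this group per length (15.1 ± 0.983 and 15.0 ± 1.08 TPM), had 21.8, 23.0, 25.5 and 21.7 CPM in siDEPDC1 and 22.2, 24.4 and 21.6 CPM in siCTL. The ETS2 groups overlapped, with siDEPDC1 replicate 3 above every siCTL library.

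AP-1 is a dimer of a JUN protein with another JUN or a FOS protein. JUN (chromosome 1, 58780788 to 58784327, minus strand) had 163, 170, 176 and 182 CPM in siDEPDC1, against 141, 134 and 126 CPM in siCTL. No library overlapped, and the transcript rose 1.29-fold (log2 fold change 0.37 ± 0.058, adjusted p = 4.3e-06). JUNB and JUND did not pass the test, at 49.9 ± 4.14 and 175 ± 22.0 CPM in siDEPDC1 and 54.9 ± 1.79 and 168 ± 8.55 CPM in siCTL. JUNB passed as lower without siDEPDC1 replicate 4 (log2 fold change -0.19, adjusted p = 0.026, against -0.13 and 0.13 with all libraries). JUN made up 29.9%, 28.1%, 30.2% and 26.8% of the summed JUN-family TPM in the siDEPDC1 libraries and 24.0%, 24.3% and 23.4% in the siCTL libraries. JUNB made up 15.8% to 16.9% in siDEPDC1 and 18.5% to 19.8% in siCTL. JUND was the most abundant of the 3 in every library, with 55.1 ± 1.82% and 57.0 ± 0.971%. These shares are a description and were not tested.

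On the FOS side, nearly all of the transcript was FOSL1 and FOSL2, the Fos-related genes FRA1 and FRA2 that are known to be sustained by steady ERK signalling. FOSL1 made up 77.0 ± 1.34% of the summed FOS-family TPM in siDEPDC1 and 76.1 ± 0.494% in siCTL. FOSL2 made up 21.9 ± 1.27% and 22.8 ± 0.581%. FOS contributed 0.788 ± 0.101% and 0.861 ± 0.0934%. FOSL1 had 282, 323, 351 and 322 CPM in siDEPDC1, against 298, 282 and 277 CPM in siCTL. The groups overlapped through siDEPDC1 replicate 1, and the rise of 1.12-fold (adjusted p = 0.038) was the weakest call among the members. FOSL1 missed the threshold without replicate 2 or 3 of siCTL or replicate 2 or 3 of siDEPDC1 (adjusted p = 0.13, 0.12, 0.085 and 0.18) and with no count filter (0.071). FOSL2 was at 364 ± 14.8 and 345 ± 4.47 CPM, above in every siDEPDC1 library but short of the threshold (adjusted p = 0.27).

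FOS, the best-known immediate early gene, had 4.5, 3.98, 4.04 and 4.28 CPM in siDEPDC1 and 4.86, 3.81 and 3.91 CPM in siCTL, which is 31 to 66 counts per library. Its log2 fold change was 0.00, with an interval of -0.32 to 0.32, so at this depth a change within that interval is not excluded. FOSB, the least abundant of the FOS genes, had 2.15, 3.31, 2.87 and 2.76 CPM in siDEPDC1 and 1.99, 1.84 and 2.17 CPM in siCTL (log2 fold change 0.49, adjusted p = 0.069). Only siDEPDC1 replicate 1 fell among the siCTL values, and without it FOSB passed as higher (log2 fold change 0.60, adjusted p = 0.029). FOSB overlaps ERCC1 on the opposite strand, which had 9437 counts over the 7 libraries, against 200 for FOSB, and itself rose (log2 fold change 0.29, adjusted p = 1.5e-04). The reads of FOSB and ERCC1 cannot be told apart here.

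**Figure D3:**
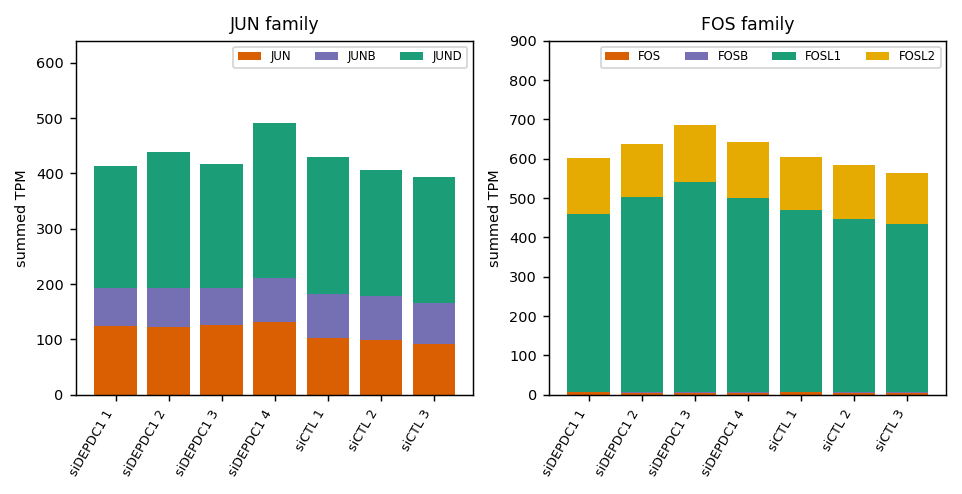
Summed TPM of the JUN family and the FOS family in each library, siDEPDC1 1 to 4 and then siCTL 1 to 3, divided by gene. JUND is the widest band of the JUN family and FOSL1 of the FOS family in every library, and the JUN band is wider in each siDEPDC1 library than in any siCTL library.

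The EGR genes, zinc finger factors that serum response elements switch on, showed no called change. EGR1 had 30.9, 29.9, 33.3 and 31.4 CPM in siDEPDC1 and 29, 30.7 and 30.2 CPM in siCTL (log2 fold change 0.06, interval -0.08 to 0.21), and the groups overlapped. EGR2 was at 1.09 ± 0.340 and 0.696 ± 0.0401 CPM, with 7 to 17 counts and 8 to 10 counts per library, and missed the threshold, with a log2 fold change of 0.65 (interval -0.02 to 1.33). EGR3, not tested, had 0.880, 0.663, 0.391 and 0.535 CPM in siDEPDC1 and 0.442, 0.525 and 0.521 CPM in siCTL, at most 9 counts in any library.

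Promoter windows of 250 bases before to 50 bases after the start were found for 34 of the 43 members in RefSeq's table (GRCh38.p14). The CArG box, the sequence SRF binds beside ELK1 or ELK3, was present in the windows of EGR1 and SRF, each with 2 copies, which is 5.88% of the members searched, against 1.03% of 11251 promoters of tested genes. SRF rose and EGR1 did not pass the test. The sequence is the same on both strands in its general form, and a CArG box outside these windows would be missed. The AP-1 site TGACTCA, searched on both strands, was in the windows of FOSL2 and SPRED3 (5.88%, against 3.38%). The cyclic AMP response element TGACGTCA, a palindrome, was in those of DUSP1, JUND and NF1 (8.82%, against 3.24%). The ETS site CCGGAAGT, on both strands, was in that of NF1 (2.94%, against 8.51%). The TATA box TATAAA, searched on the gene's strand, was in those of DUSP1, FOS, FOSB and JUNB (11.8%, against 3.77%), none of which was called. The CArG boxes are printed in capitals, as the element that SRF and ELK3, which changed in opposite directions here, are known to bind:
EGR1, distal copy, chr5:138465364-138465393, plus strand: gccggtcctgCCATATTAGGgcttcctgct
EGR1, proximal copy, chr5:138465386-138465415, plus strand: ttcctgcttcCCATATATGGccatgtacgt
SRF, distal copy, chr6:43171229-43171258, plus strand: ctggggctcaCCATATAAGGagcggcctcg
SRF, proximal copy, chr6:43171249-43171278, plus strand: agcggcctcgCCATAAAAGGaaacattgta

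Among the 8 other immediate early genes 4 rose and 1 fell. MYC, the growth-promoting factor whose transcript ERK signalling raises, had 86.7, 98.0, 93.1 and 96.7 CPM in siDEPDC1, against 76.5, 80.4 and 75.8 CPM in siCTL, with no overlap (1.21-fold, adjusted p = 6.2e-04). IER3 had 466, 501, 490 and 521 CPM in siDEPDC1 and 421, 407 and 425 CPM in siCTL (1.18-fold, adjusted p = 6.5e-04). IER2 had 212, 220, 227 and 236 CPM in siDEPDC1 and 185, 198 and 181 CPM in siCTL (1.19-fold, adjusted p = 6.2e-04). In both IER genes every siDEPDC1 library lay above every siCTL library. PHLDA1, an ERK-induced regulator of survival, had 926, 991, 979 and 949 CPM in siDEPDC1 and 837, 862 and 891 CPM in siCTL, also without overlap (1.11-fold, adjusted p = 0.025). The PHLDA1 call did not hold without replicate 1 or 2 of siCTL or replicate 2 or 3 of siDEPDC1 (adjusted p = 0.14, 0.090, 0.076 and 0.067) and with no count filter (0.070).

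ZFP36, which encodes tristetraprolin, a protein that binds AU-rich sequences and speeds the decay of immediate early transcripts, moved the other way. It had 13.8, 15.5, 15.5 and 15.0 CPM in siDEPDC1, against 17.7, 19.1 and 17.4 CPM in siCTL, with no overlap (1.21-fold lower, adjusted p = 0.017). The call was lost without siCTL replicate 2 and with DESeq2 (adjusted p = 0.11 and 0.067). KLF6, a zinc finger factor, was at 141 ± 7.58 and 145 ± 4.91 CPM and missed the threshold, with a log2 fold change of -0.04 (interval -0.15 to 0.07). IER5 was at 98.0 ± 6.72 and 107 ± 6.16 CPM (log2 fold change -0.13, adjusted p = 0.12), and passed as lower without siCTL replicate 3 (adjusted p = 0.046). NR4A1, a nuclear receptor and the least abundant of these genes, had 1.76, 2.36, 1.82 and 1.25 CPM in siDEPDC1 and 1.99, 2.23 and 1.65 CPM in siCTL, at 14 to 34 counts per library (log2 fold change -0.12, interval -0.60 to 0.36).

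AU-rich elements, which ZFP36 binds, are a feature that immediate early transcripts are known for and that played no part in the choice of the members. Of the 40 members searched, 11 (27.5%) hold the nonamer TTATTTATT in the 3′ UTR, against 8.87% of all tested genes searched. The 11 were BRAF, SPRED3, DUSP1, DUSP4, ELK1, SRF, FOS, FOSL2, IER5, ZFP36 and PHLDA1. Carriers have longer 3′ UTRs than other genes, with a median of 3013 bases in the member carriers and 1234 bases in the other members searched. Of the 11 carriers 2 were higher and 2 lower, with a median log2 fold change of 0.040, against 10 higher and 5 lower of the 29 members without the nonamer, with a median of 0.061. Over all searched genes 16.9% of carriers were higher and 25.7% lower, against 18.9% and 19.8% of genes without the nonamer, and the member carriers had 18.2% in each direction. The part of ZFP36 in these values was not tested. DUSP1, whose 3′ UTR is among the short ones at 672 bases, has 2 copies. The 30 bases around single copies in FOS and ZFP36 and around both copies in DUSP1 are printed with the nonamer in capitals, 5′ to 3′ on the transcript strand:
FOS, chr14:75282060-75282089, plus strand: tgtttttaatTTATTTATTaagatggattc
ZFP36, chr19:39409196-39409225, plus strand: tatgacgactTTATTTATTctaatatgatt
DUSP1, first copy, chr5:172768642-172768671, minus strand: gggctggtccTTATTTATTtaacttcaccc
DUSP1, second copy, chr5:172768374-172768403, minus strand: agaatataccTTATTTATTtttgtgtaggt

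**Figure D4:**
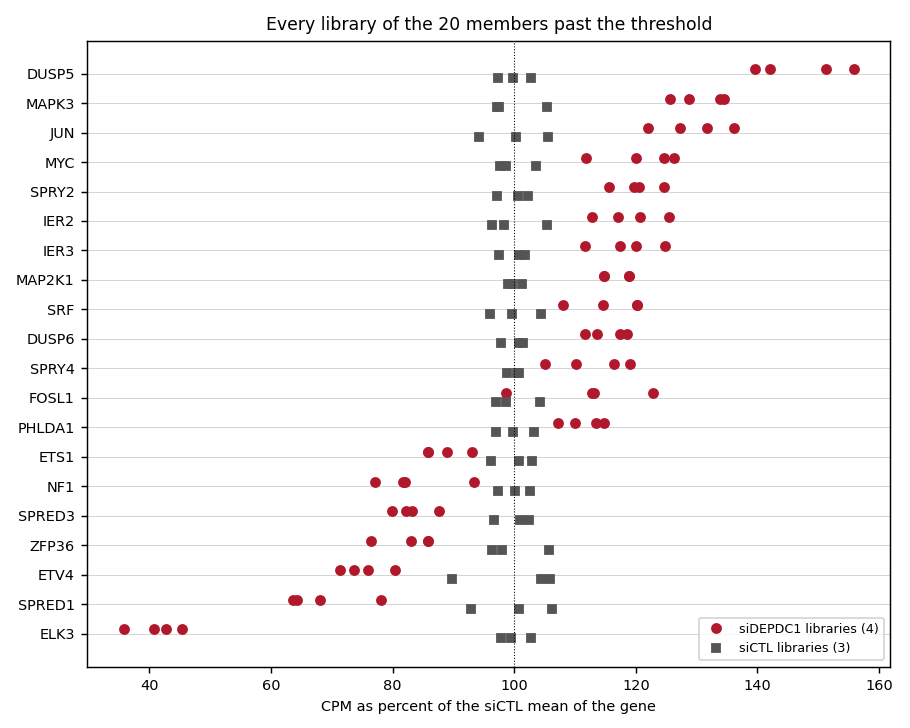
CPM of each library as a percent of the siCTL mean of the gene, for the 20 members past the threshold, siDEPDC1 libraries as circles and siCTL libraries as squares, ordered by fold change. The groups are separated in 19 of the 20 genes, FOSL1 being the exception, against 37.3% of all tested genes. These 20 were picked by a test on the same libraries, so their separation is no further evidence.

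Several members overlap other genes. In 11 of the 43 a gene on the opposite strand had at least 25% as many counts as the member (BRAF, DUSP6, EGR3, ETV4, FOSB, IER2, IER3, JUNB, NF1, NR4A1 and PHLDA1), and 6 of these 11 are among the 20 called. The overlapping RNA of IER2 had 59.3% of its counts and a log2 fold change of 0.29, that of DUSP6 29.6% and 0.17, and IER3-AS1 30.3% of the IER3 counts and 0.20. DHX8, which overlaps ETV4, had 182% of the ETV4 counts and was not called (log2 fold change -0.11, adjusted p = 0.15). PHLDA1-AS1 had 47.9% of the PHLDA1 counts and was not called either (log2 fold change 0.10, adjusted p = 0.20). EVI2B, with 32.0% of the NF1 counts, was higher (log2 fold change 0.31, adjusted p = 0.022), whereas NF1 was lower. The share of reads that these genes exchange was not tested.

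Replicates of the members were close. The median coefficient of variation of CPM over the 41 tested members was 5.34% in siDEPDC1 and 3.79% in siCTL, against 8.72% and 6.73% over all tested genes. Genes with more counts vary less, and the members were not matched to other genes by level. Of the 20 called members, 14 stayed past the threshold under every alternative run on them, up to 15 for each. These 14 were MAPK3, MAP2K1, NF1, SPRY2, SPRED1, DUSP5, DUSP6, ETV4, ELK3, SRF, JUN, IER2, IER3 and MYC.

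The wider pathway was read from 9 lists with 112 genes, of which 104 are no member. Of the 100 tested genes that are no member, 19 (19.0%) were higher and 26 (26.0%) lower, against 16.5% and 17.9% of all tested genes, with a median log2 fold change of -0.00057. Each list below has 7 to 22 tested genes, and these same shares of all tested genes stand beside its counts, with no test. The list of genes that feed RAS or switch it off had the most falls, with 7 lower and 1 higher of 13 (median log2 fold change -0.25). SHOC2, a scaffold that helps to activate RAF, fell 1.45-fold to 32.5 ± 1.07 CPM in siDEPDC1, against 47.2 ± 1.29 CPM in siCTL. PTPN11, the SHP2 phosphatase that relays receptor signals to RAS, was at 354 ± 16.8 and 478 ± 23.6 CPM (1.35-fold lower, adjusted p = 1.1e-07), and RASA1, a RAS GTPase activator, at 181 ± 27.1 and 241 ± 6.89 CPM (1.33-fold lower). GRB2, the adaptor between receptors and the RAS exchange factors, rose to 150 ± 5.88 CPM in siDEPDC1, against 111 ± 2.78 CPM in siCTL (1.35-fold, adjusted p = 1.7e-07). None of the 12 searched genes of this list carries GATAACT.

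Among the scaffolds and modulators of the RAF-MEK-ERK chain 1 was higher and 1 lower of 8, with 2 higher without siDEPDC1 replicate 1 and 2 lower without siCTL replicate 3. PEBP1, which binds RAF and holds it off MEK, rose to 268 ± 8.18 CPM in siDEPDC1, against 209 ± 3.12 CPM in siCTL (1.28-fold, adjusted p = 2.2e-06). MAP3K8, a kinase that can activate MEK, fell to 4.56 ± 0.796 CPM in siDEPDC1, against 6.11 ± 0.458 CPM in siCTL (adjusted p = 0.030). The MAP3K8 call was lost without siCTL replicate 1 or 2 or siDEPDC1 replicate 2 or 3 (adjusted p = 0.069, 0.13, 0.10 and 0.10) and with DESeq2 (0.12). Of the 7 ERK effector kinases only RPS6KA3, the RSK2 gene, was called, at 71.5 ± 7.59 and 81.8 ± 1.80 CPM (lower, adjusted p = 0.022). It was lost without siCTL replicate 1 or 3 or siDEPDC1 replicate 2, 3 or 4 (adjusted p = 0.060, 0.055, 0.079, 0.059 and 0.099), and with library size alone (0.063).

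The other phosphatase and Sprouty genes had 2 lower and none higher of 8, with 1 higher without siCTL replicate 1 or siDEPDC1 replicate 1. DUSP3 fell 1.83-fold to 41.4 ± 1.60 CPM in siDEPDC1, against 76.0 ± 3.71 CPM in siCTL (adjusted p = 4.7e-13), and SPRY1 fell 1.44-fold to 37.3 ± 2.30 CPM, against 53.6 ± 1.30 CPM in siCTL. Both carry GATAACT. Over the 98 searched genes of the wider lists that are no member, 10 carry the word, of which 5 were lower, MAP2K6 was higher, and RPS6KA5, JDP2, BACH1 and KLF10 were not called. Another 21 lowered genes among the 98 have no copy.

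Other AP-1 and related partners went both ways, with 2 higher and 2 lower of 9. ATF2, a CRE-binding factor that pairs with JUN and a carrier of the word, fell to 43.2 ± 5.14 CPM in siDEPDC1, against 55.4 ± 2.56 CPM in siCTL. MAFK, a small MAF protein, rose 1.17-fold (adjusted p = 0.010, but 0.10 without siCTL replicate 1). ATF3, a stress-induced factor, was at 5.77 ± 0.579 and 4.36 ± 0.320 CPM (higher, adjusted p = 0.038), and BATF3 at 2.48 ± 0.127 and 3.45 ± 0.325 CPM (lower, adjusted p = 0.042). BATF3 lost its call without any single library (adjusted p = 0.054 to 0.18), and ATF3 lost it without any single library other than siDEPDC1 replicate 4 (0.052 to 0.12). Other ETS factors and SRF cofactors had 4 lower and 1 higher of 10. ELF1 fell 1.47-fold, ETV6 1.28-fold and ELK4, the third ternary complex factor and a carrier of the word, 1.2-fold, whereas ELF4 rose 1.26-fold to 60.4 ± 4.33 CPM in siDEPDC1, against 47.8 ± 0.861 CPM in siCTL.

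Other immediate early and early response genes had 9 higher and 5 lower of 22 (median log2 fold change 0.15). AREG, a ligand of the EGF receptor, was at 123 ± 10.9 and 80.8 ± 7.17 CPM (1.53-fold, adjusted p = 7.0e-09). RHOB, a small GTPase gene, was at 30.6 ± 2.25 and 19.5 ± 1.67 CPM (1.56-fold), and CCN1, a matrix protein gene induced through SRF and YAP, at 412 ± 16.8 and 340 ± 10.9 CPM (1.21-fold). Lower were PTGS2, the inducible cyclooxygenase gene and a carrier of the word, at 7.14 ± 1.31 and 11.3 ± 1.06 CPM, IER5L at 11.2 ± 1.54 and 17.1 ± 1.13 CPM, and ZFP36L1, a relative of ZFP36, at 160 ± 5.23 and 194 ± 7.22 CPM (1.21-fold lower, adjusted p = 1.5e-04).

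The list of transcripts often used to read ERK output shares 8 genes with the members and had 8 higher and 1 lower of 18 (median log2 fold change 0.080). Among the higher genes PHLDA1, SPRY2, SPRY4, DUSP6 and FOSL1 are members already counted, so the list is not independent of them. The siDEPDC1 libraries lay wholly above in 8 of its genes and wholly below in 4, against 37.3% of all tested genes separated in either direction. Without siCTL replicate 2 the number higher was 5. The number lower was 2 without siCTL replicate 3 or siDEPDC1 replicate 4. It was also 2 with DESeq2, with limma-voom, with no count filter and with the replicate block. Besides the members already given, EPHA4, an ephrin receptor, rose to 39.4 ± 2.95 CPM in siDEPDC1, against 28.1 ± 1.07 CPM in siCTL (1.40-fold, adjusted p = 4.3e-06). LIF, a secreted cytokine, rose to 123 ± 8.14 CPM, against 89.2 ± 1.41 CPM in siCTL (1.38-fold). ETV4 was the one lowered gene of this list in the fit reported here. JNK and p38 kinase genes had 3 higher and 4 lower of 15 (20.0% and 26.7%), against 16.5% and 17.9% of all tested genes. MAP3K5, the stress-activated kinase ASK1, fell 2.02-fold to 13.2 ± 1.74 CPM in siDEPDC1, against 26.6 ± 2.09 CPM in siCTL (adjusted p = 1.3e-10). MAPK8, the JNK1 gene whose product phosphorylates JUN, fell 1.36-fold and MAPKAPK2, a target of p38, 1.23-fold. MAP2K3 and MAP2K6, which activate p38, rose 1.23-fold and 1.42-fold, MAP2K6 as a carrier of GATAACT. MAPK13, a p38 gene, was higher by 1.11-fold (adjusted p = 0.042). It lost that call without siCTL replicate 1 or 3 or siDEPDC1 replicate 1, 2 or 4 (adjusted p = 0.16, 0.15, 0.066, 0.054 and 0.076), with DESeq2 (0.053) and with no count filter (0.13).

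**Figure D5:**
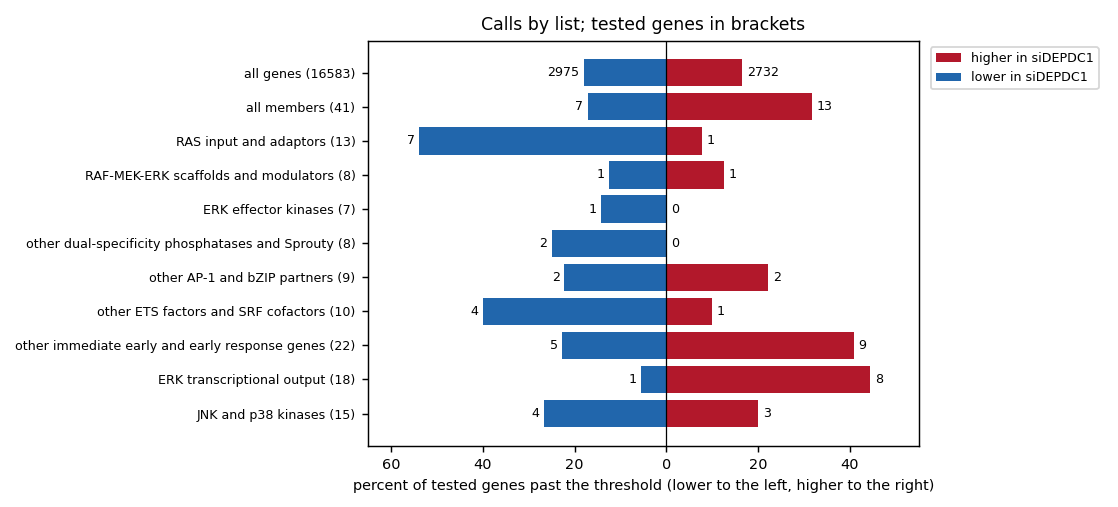
Percent of tested genes lower (left) and higher (right) in siDEPDC1 for all genes, all members and the 9 wider lists, with the number of called genes at each bar and the number tested in brackets. The RAS input list, which also holds genes that switch RAS off, reaches furthest to the left (7 of 13). ERK transcriptional output reaches furthest to the right (8 of 18).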

How the data were processed

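Counts per Ensembl gene were deposited by the authors for each of the 7 libraries, without normalization or pooling visible in the values. Library preparation used Illumina TruSeq reagents with paired-end reads, per the labels' protocols. Per the submitters' processing notes, reads were handled on GRCh38. These notes list FastQC, DESeq2 and STAR 2.7.9a without saying what each did. Which counter, annotation and strand setting were used is not given in the sources.

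From these counts, genes were filtered with filterByExpr by group and tested two-sided by the quasi-likelihood F-test of edgeR 4.0.16 (R 4.3.3), with robust dispersions and TMM factors. The model held group and no other term. All 7 libraries entered, and p-values were adjusted by the Benjamini-Hochberg method over all 16583 genes tested, with a threshold of 0.05. CPM values use the TMM factors. TPM values divide counts by the longest transcript in GENCODE release 29, and errors of fold changes are standard errors implied by the F statistic, with approximate 95% intervals of 1.96 SE. The 3′ UTR of 1 transcript per gene was searched where it had at least 50 bases.

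The members, the lists and the 3′ UTR word were chosen with earlier results of these data known. All members are accounted for. Values per library are given for called members and for the highest and lowest per length of each role group, and from each wider list up to 3 called genes in each direction with the smallest p are named. Alternatives were DESeq2 size factors, library size alone, no count filter, a minimum of 50 counts per library within a group, limma-voom (limma 3.58.1), DESeq2 1.42.0, a replicate block, the same 6 libraries without it, and each library left out in turn. DUSP2, EGR3 and MYC had no searched 3′ UTR.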

Additional observations from a re-analysis of the deposited data

Results flagged for a closer look

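Among 73 sets of 4 siDEPDC1 values (tested members, DEPDC1 and the named genes of the wider lists), 3 had a single library far from the other 3, its gap to the nearest, as a share of the whole range, being above Dixon's 95% critical value. Chance puts about 5% of such sets there. MAP2K2 was at 187 CPM in siDEPDC1 replicate 4, against 159 to 162 CPM in the other siDEPDC1 libraries. KLF6 was at 130 CPM in siDEPDC1 replicate 3, against 145 CPM in each of the others. MAP2K6 was at 12.6 CPM in siDEPDC1 replicate 1, against 9.80 to 10.1 CPM.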

How the results depend on the processing

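The number of members higher ran from 10 to 14 and the number lower from 5 to 8 over the alternatives, against 13 and 7 as reported, and leaving out single libraries gave the same ranges. No called member changed sign under any alternative run. Of the 20 called members 6 lost the call under 1 alternative or more, and 4 of the 21 others gained one. DESeq2 called 18 of the same 20 members and limma-voom all 20. Replicate numbers did not pair the libraries: correlations of same-numbered deviations were -0.116, -0.0423 and 0.00298, and 0 of 6 libraries correlated best with their own number. A replicate block on numbers 1 to 3 gave 11 members higher and 7 lower, against 14 and 8 in the same 6 libraries without it, and 2292 and 2437 of all genes, against 2627 and 2767. SPRY4, ETS1 and FOSL1 missed the threshold under the block (adjusted p = 0.068, 0.053 and 0.088) and JUNB passed it (0.048). With summed exon length in place of the longest transcript, FOS was 0.588% and 0.642% of FOS-family TPM in siDEPDC1 and siCTL and FOSB 0.224% and 0.179%, and in siCTL FOSL1 was 75.2% and FOSL2 23.9%. Depth limits DUSP2, EGR3, EGR2, NR4A1, FOSB and FOS most, at under 70 counts per library.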
